A study of Drosophila melanogaster with 8 samples.

Results

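The genes described here are 8 regulators of sexual identity and survival in the female germline of Drosophila melanogaster: otu, ovo, Sxl, snf, Phf7, stil, vir and fl(2)d. They are taken by gene name from the 14094 genes counted, a choice made with earlier results of these data known, and each name matched 1 gene. RNA was sequenced from whole adult ovaries dissected on days 1 to 3 after eclosion, in 4 groups of 2 libraries. Flies of genotype nosGAL4;stwl RNAi/TM6 were compared with nosGAL4;MKRS/TM6 controls, and flies of genotype bamGAL4>stwl RNAi/TM6 with controls listed as bamGAL4 alone. Both RNAi groups therefore carried a GAL4 driver, the hairpin against stwl and the balancer TM6. The nosGAL4 controls carried balancers too, whereas none is listed for the bamGAL4 controls. The driver nosGAL4 works from the germline stem cells onward, and bamGAL4 in dividing cysts, so both direct the hairpin to the germline while the ovary also holds somatic cells. The stwl gene encodes the chromatin protein Stonewall, which is needed for oogenesis, and the design asks what its knockdown changes in the ovary.

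In female germ cells the RNA-binding protein Sex-lethal, encoded by Sxl, is the switch for female identity. It is kept on by splicing of its own transcript, in which snRNP proteins and the m6A methylation complex take part, and it allows the daughters of germline stem cells to differentiate. The transcription factor Ovo and the deubiquitinase Otu act in the same cells and are needed for germ cell survival and egg chamber development, and the PHD-finger protein Phf7 promotes male germ cell identity and is normally kept low in ovaries.

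Of the 8 genes, 5 lie on the X chromosome and 3 on chromosome arm 2R (dm6 coordinates). On X are otu (FBgn0003023, X:8485008-8489535), ovo (FBgn0003028, X:5048273-5070929), Sxl (FBgn0264270, X:7074550-7098053), snf (FBgn0003449, X:5309242-5310501) and Phf7 (FBgn0031091, X:20160355-20165830). On 2R are stil (FBgn0003527, 2R:12570367-12571883), vir (FBgn0003977, 2R:23360192-23366355) and fl(2)d (FBgn0000662, 2R:13819624-13824553). The counts are sums over each whole gene, so they do not separate the female and male splice forms of Sxl, the ovo and somatic shavenbaby forms of the ovo locus, or the transcripts of Phf7. Exons of otu overlap 162 bases of CG33181 on the opposite strand, and those of vir overlap 75 bases of Mthfs on the opposite strand. The strand setting of the counting is not given in the sources used here. It is therefore not known whether reads in those bases were told apart.

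The libraries held 7473859 to 12174983 counts each, and 8957 genes had enough counts to be tested, all 8 of these genes among them. The targeted gene, stwl, was not lower in either RNAi group. It stood at 61.1 and 27.7 CPM (counts scaled to a common library size) in the nosGAL4 libraries labelled knockdown, against 23.1 and 16.9 CPM in their controls, and at 23.2 and 29.6 CPM in the bamGAL4 libraries labelled knockdown, against 18.2 and 21.0 CPM. The log2 fold change of stwl was 1.15 (SE 0.37, edgeR adjusted p = 0.0203) with nosGAL4 and 0.43 (SE 0.36, edgeR adjusted p = 0.313) with bamGAL4. The nosGAL4 rise was lost without nosGAL4 library 1 labelled knockdown (0.46, adjusted p = 0.196), without nosGAL4 control library 2, with library totals, ribosomal protein gene scaling or either length correction, and in the 4 nosGAL4 libraries alone. With either length correction the bamGAL4 value turned to −0.37 or −0.32, and neither passed. Of the 10 alternatives other than leaving 1 library out, 1 passed with bamGAL4, as higher, and the values reached 1.32. The counts thus do not check the label, and the RNAi groups are called libraries labelled knockdown below. Those libraries differed from controls across the ovary. The summed level of 17 germline markers was 1824 and 1442 CPM in the nosGAL4 libraries labelled knockdown, against 8333 and 8467 CPM in controls, and 901 and 1196 CPM in the bamGAL4 libraries labelled knockdown, against 9077 and 7789 CPM. Muscle sheath markers summed to 39755 and 44937 CPM, against 806 and 883 CPM with nosGAL4, and to 53402 and 48602 CPM, against 794 and 854 CPM with bamGAL4. Markers of niche, escort and follicle cells, haemocytes and fat body, and neurons were higher as well. In bulk ovaries fewer cells of a type and less RNA per cell cannot be told apart, which holds for every level below.

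**Figure D1:**
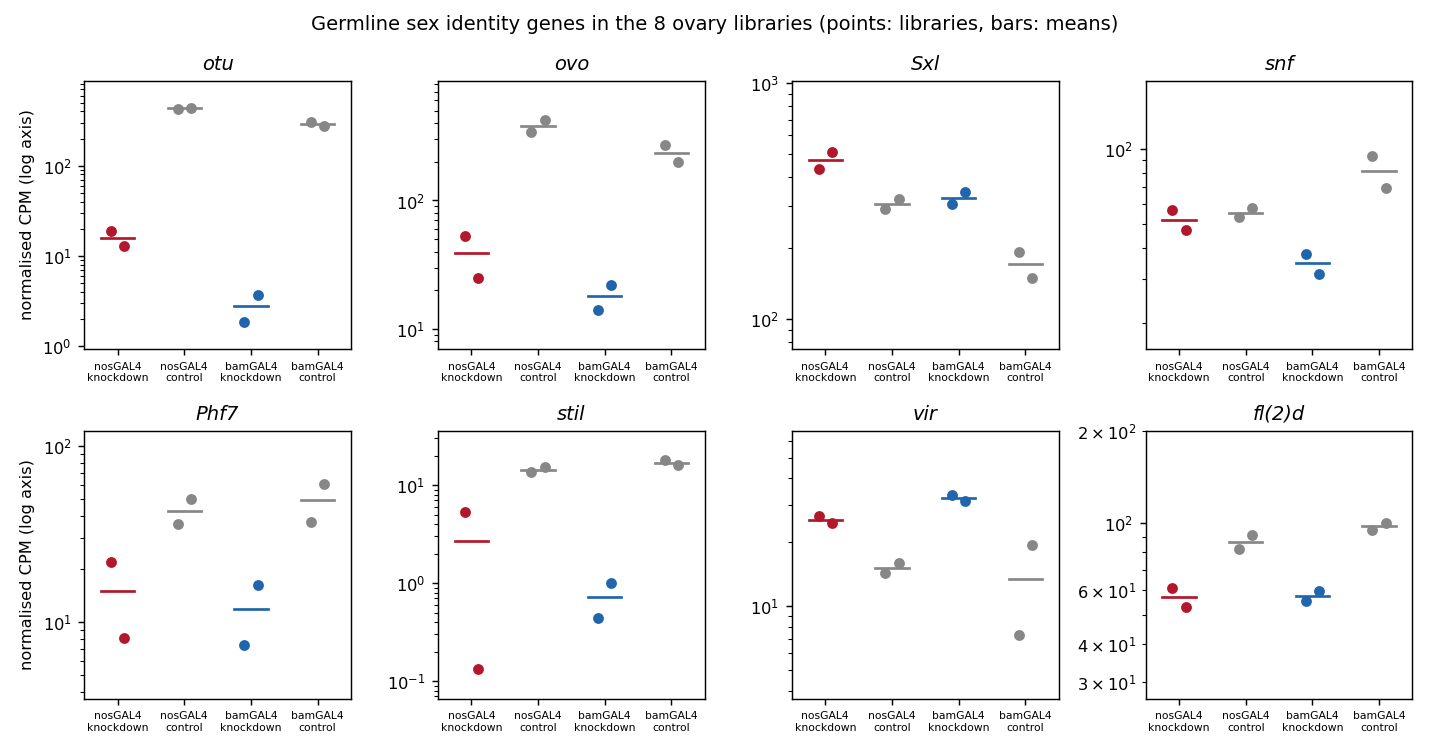
Normalised CPM (log axis) of the 8 genes in each library; points are libraries, bars are group means, and libraries labelled knockdown stand left of their controls. With both drivers otu and ovo lay far below their controls, Sxl above them and fl(2)d slightly below, and the 2 stil points of the nosGAL4 libraries labelled knockdown lay far apart.

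The deepest loss was that of otu, whose product is a Tudor-domain deubiquitinase required in the female germline. Its level was 19.1 and 12.9 CPM in the nosGAL4 libraries labelled knockdown, against 429 and 434 CPM in the nosGAL4 controls. With bamGAL4 there were 1.86 and 3.68 CPM in the libraries labelled knockdown, against 307 and 276 CPM in controls. The groups were far from overlapping with either driver. The log2 fold change was −4.76 (SE 0.33, n = 2 libraries per group), a 27.0-fold fall, with nosGAL4 (adjusted p = 1.36e-06, edgeR quasi-likelihood test with Benjamini-Hochberg adjustment over all genes). With bamGAL4 it was −6.72 (SE 0.37), a 106-fold fall (edgeR adjusted p = 3.25e-07).

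The zinc-finger transcription factor gene ovo, whose product activates otu, fell less deeply. Its level was 53.2 and 24.9 CPM in the nosGAL4 libraries labelled knockdown, against 341 and 425 CPM in controls. In the bamGAL4 libraries labelled knockdown it was 14.0 and 21.9 CPM, against 268 and 199 CPM in controls. All 4 libraries labelled knockdown lay below all 4 controls. The log2 fold change was −3.29 (SE 0.39, edgeR adjusted p = 6.43e-05) with nosGAL4 and −3.71 (SE 0.40, edgeR adjusted p = 2.66e-05) with bamGAL4. The size of the fall of ovo moved with gene length and scaling. It was −4.35 with nosGAL4 and −5.59 with bamGAL4 once the trend on exon length was removed, and −2.79 with bamGAL4 under ribosomal protein gene scaling, which is −3.60 relative to the median of all genes. Of the 8 genes, otu and ovo alone passed the threshold with both drivers under all 18 alternative settings, which are other scalings, filters, tools, length corrections and the omission of each library in turn.

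The third germline gene of this kind, stil, encodes a nuclear protein needed for female germ cell survival that acts on the otu promoter. It was the least abundant of the 8 in the libraries labelled knockdown, and few reads stood behind it. With nosGAL4 it had 39 counts (5.27 CPM) in library 1 and 1 count (0.133 CPM) in library 2, against 13.5 and 15.2 CPM in controls. A single count is under the floor of 3 counts used here for detection. With bamGAL4 it had 5 and 10 counts (0.443 and 0.994 CPM) in the libraries labelled knockdown, against 17.9 and 15.9 CPM in controls. The groups did not overlap with either driver. The fall with bamGAL4 passed the test (log2 fold change −4.55, SE 1.07, edgeR adjusted p = 0.00543), although not without bamGAL4 library 1 labelled knockdown (−4.07, adjusted p = 0.0624). It was −3.87 once the trend on exon length was removed and −3.66 with ribosomal protein gene scaling, and passed in both. The nosGAL4 value of −2.41 (SE 0.94) missed the threshold (edgeR adjusted p = 0.0556) and depended on which library was used. It was −6.64 (adjusted p = 2.18e-05) without library 1 labelled knockdown and −1.46 (adjusted p = 0.0165) without library 2 labelled knockdown. It also passed with RLE size factors, library totals, ribosomal protein gene scaling, either length correction and DESeq2, at values from −2.38 to −3.13.

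Sxl itself was higher, not lower, in the libraries labelled knockdown. It stood at 431 and 511 CPM with nosGAL4, against 294 and 322 CPM in controls, and at 307 and 346 CPM with bamGAL4, against 192 and 149 CPM in controls. No library labelled knockdown overlapped the controls of its own driver. The log2 fold change was 0.61 (SE 0.22, edgeR adjusted p = 0.0346) with nosGAL4 and 0.94 (SE 0.22, edgeR adjusted p = 0.00372) with bamGAL4, rises of 1.53-fold and 1.92-fold.

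The direction for Sxl depended on a correction for gene length. In these libraries log2 fold changes rose with the annotated exon length of the gene. With bamGAL4 the median change over all genes was −0.78 in the third of genes with the shortest exons and 0.91 in the third with the longest, and with nosGAL4 it was 0 and 0.42. Sxl has 9192 bases of exons when its 25 annotated transcripts are merged, but a median transcript of 2892 bases. Removing the trend on merged exon length turned its change to −0.88 (edgeR adjusted p = 0.00928) with nosGAL4 and −1.37 (edgeR adjusted p = 0.000821) with bamGAL4. Removing the trend on median transcript length instead, an alternative added after the first reversal was seen, left 0.40 (edgeR adjusted p = 0.138) and 0.51 (edgeR adjusted p = 0.0673). With nosGAL4 the rise was also lost when scaled by library totals (0.20, adjusted p = 0.422) or by ribosomal protein genes (0.10, adjusted p = 0.808), without a low-count filter (adjusted p = 0.056) and in the 4 nosGAL4 libraries alone (adjusted p = 0.0568). Leaving out nosGAL4 library 2 labelled knockdown, nosGAL4 control library 1 or nosGAL4 control library 2 ended the call as well (adjusted p = 0.141, 0.188 and 0.108), as did leaving out either bamGAL4 library labelled knockdown (0.0692 and 0.0694).

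Library totals and ribosomal protein gene scaling differ from the reported scaling by 1 factor per library, which shifts all genes nearly alike. The median log2 change over the genes tested was 0.11 with nosGAL4 and −0.06 with bamGAL4 as reported, −0.28 and −0.27 with library totals, and −0.41 and 0.81 with ribosomal protein gene scaling. Relative to that median, Sxl was 0.51, 0.48 and 0.51 higher with nosGAL4 and 1.00, 1.01 and 1.02 higher with bamGAL4 on the log2 scale. The corresponding values of otu were −4.86, −4.89 and −4.93 with nosGAL4 and −6.66, −6.66 and −6.62 with bamGAL4. Such values agree almost by construction, so their agreement is no check on the changes.

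**Figure D2:**
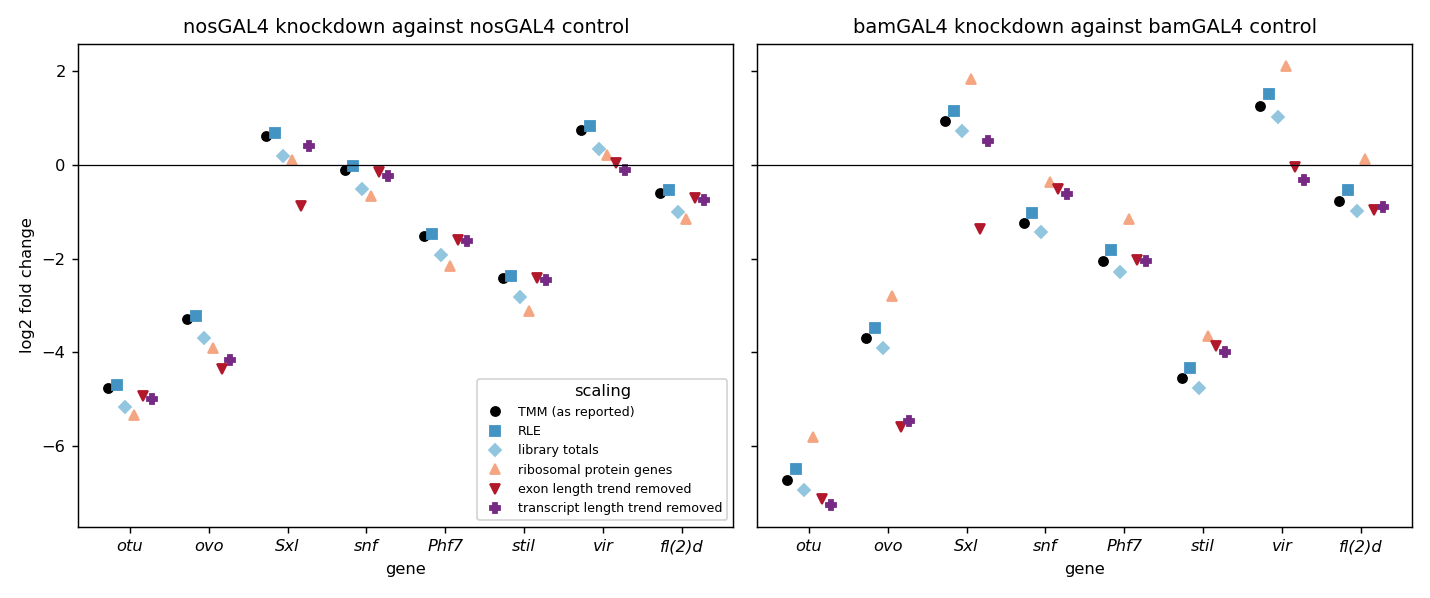
Log2 fold change (libraries labelled knockdown over controls) of the 8 genes under the reported TMM scaling and 5 alternatives, nosGAL4 left and bamGAL4 right. The points of otu, ovo and stil stay below 0 throughout, whereas those of Sxl, at 0.61 and 0.94 as reported, lie at −0.88 and −1.37 once the trend on exon length is removed.

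The 3 splicing cofactors of Sxl did not follow it as a group. The snf gene encodes the snRNP protein that Sxl needs to splice its own transcript. Its level was 56.5 and 47.1 CPM in the nosGAL4 libraries labelled knockdown, against 53.0 and 57.8 CPM in controls, so the groups overlapped. With bamGAL4 it was 37.9 and 31.4 CPM in the libraries labelled knockdown, against 93.5 and 69.6 CPM in controls, with no overlap. The log2 fold change was −0.10 (SE 0.24, edgeR adjusted p = 0.751) with nosGAL4 and −1.23 (SE 0.25, edgeR adjusted p = 0.00136), a 2.35-fold fall, with bamGAL4. The bamGAL4 fall was lost with ribosomal protein gene scaling (−0.36, adjusted p = 0.314), where it was −1.17 relative to the median of all genes. The gene is short, with 835 exon bases, and its bamGAL4 fall was smaller, though it still passed, once the trend on exon length (−0.51) or on median transcript length (−0.62) was removed.

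Of the subunits of the m6A writer complex, vir rose and fl(2)d fell with bamGAL4, and fl(2)d fell with nosGAL4. The transcript of vir was at 26.5 and 24.7 CPM in the nosGAL4 libraries labelled knockdown, against 14.3 and 16.0 CPM in controls, and at 33.6 and 31.4 CPM in the bamGAL4 libraries labelled knockdown, against 7.34 and 19.4 CPM. The groups were apart with both drivers, but the bamGAL4 controls differed widely from each other. The rise passed the test with bamGAL4 (log2 fold change 1.26, SE 0.39, edgeR adjusted p = 0.0144) and not with nosGAL4 (0.75, SE 0.38, edgeR adjusted p = 0.114). The nosGAL4 value passed without either bamGAL4 control library (adjusted p = 0.0227 and 0.0237) and was −0.10 once the trend on median transcript length was removed. Without bamGAL4 control library 1 the bamGAL4 value was 0.74 (adjusted p = 0.0506), and without control library 2 it was 2.14. It was also lost without either bamGAL4 library labelled knockdown (adjusted p = 0.0666 and 0.051). The gene is long, with 5867 exon bases, and its bamGAL4 change was −0.053 (edgeR adjusted p = 0.902) once the trend on exon length was removed and −0.33 (adjusted p = 0.398) once that on median transcript length was.

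The transcript of fl(2)d, which encodes the fly WTAP subunit, was at 61.2 and 53.1 CPM in the nosGAL4 libraries labelled knockdown, against 82.1 and 91.0 CPM in controls. It was at 55.3 and 59.9 CPM in the bamGAL4 libraries labelled knockdown, against 95.0 and 100.1 CPM in controls. Every library labelled knockdown lay below every control. The falls were small, with a log2 fold change of −0.60 (SE 0.21, edgeR adjusted p = 0.0314) with nosGAL4 and −0.76 (SE 0.21, edgeR adjusted p = 0.00884) with bamGAL4. The nosGAL4 call was lost without nosGAL4 library 2 labelled knockdown, control library 1 or control library 2 (adjusted p = 0.1, 0.0767 and 0.158) and without either bamGAL4 library labelled knockdown (0.0689 and 0.0633). The bamGAL4 call was lost without bamGAL4 library 1 or 2 labelled knockdown (adjusted p = 0.0884 and 0.0518). With ribosomal protein gene scaling the bamGAL4 change was 0.12 (adjusted p = 0.753), which is −0.69 relative to the median of all genes.

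Phf7, the reader of histone H3 methylation that drives the male germline programme when it is expressed in female germ cells, was lower as a whole gene. It was at 21.8 and 8.09 CPM in the nosGAL4 libraries labelled knockdown, against 35.9 and 49.7 CPM in controls, and at 7.36 and 16.2 CPM in the bamGAL4 libraries labelled knockdown, against 37.1 and 60.6 CPM. The groups did not overlap, though libraries of a group differed widely. The log2 fold change was −1.52 (SE 0.52, edgeR adjusted p = 0.0333) with nosGAL4 and −2.06 (SE 0.53, edgeR adjusted p = 0.00786) with bamGAL4. With nosGAL4 the call was lost without library 2 labelled knockdown (−0.99, adjusted p = 0.0975), control library 1 (adjusted p = 0.058) or control library 2 (adjusted p = 0.144), and without a low-count filter (−1.55, adjusted p = 0.0515). With bamGAL4 it was lost without library 1 labelled knockdown (adjusted p = 0.0523) or control library 2 (adjusted p = 0.058), and with ribosomal protein gene scaling (−1.15, adjusted p = 0.0521). No count separates the male-specific transcript from the others.

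In all, 5 of the 8 genes passed the test with nosGAL4, 1 higher and 4 lower. Across all genes tested 59.2% passed, 33.5% higher and 25.7% lower. With bamGAL4 8 of 8 passed, 2 higher and 6 lower, where 68.1% of all genes passed, 35% higher and 33.1% lower. The groups did not overlap for 7 of the 8 genes with nosGAL4 and 8 of 8 with bamGAL4, and this was so for 79.8% and 87.2% of all genes tested. The median log2 fold change of the 8 was −1.06 with nosGAL4, against 0.11 over all genes, and −1.65 with bamGAL4, against −0.06 over all genes. So many genes passed that the count alone does not set these 8 apart. The split by direction moved with the scaling. With nosGAL4 it was 0 higher and 5 lower with library totals or ribosomal protein gene scaling, and higher genes made up 43.0% and 40.1% of all calls, against 56.6% as reported. With bamGAL4 it was 2 higher and 3 lower with ribosomal protein gene scaling, where higher genes made up 77.8% of all calls, against 51.5% as reported. With either length correction neither Sxl nor vir passed as higher with either driver. Once the trend on exon length was removed, Sxl passed as lower with both drivers (−0.88 with nosGAL4 and −1.37 with bamGAL4). Leaving out 1 library moved the count between 2 and 6 with nosGAL4 and between 4 and 8 with bamGAL4. The lowest nosGAL4 count came without either nosGAL4 control library, and it was 3 without nosGAL4 library 2 labelled knockdown or either bamGAL4 library labelled knockdown. The lowest bamGAL4 count came without bamGAL4 library 1 labelled knockdown.

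**Figure D3:**
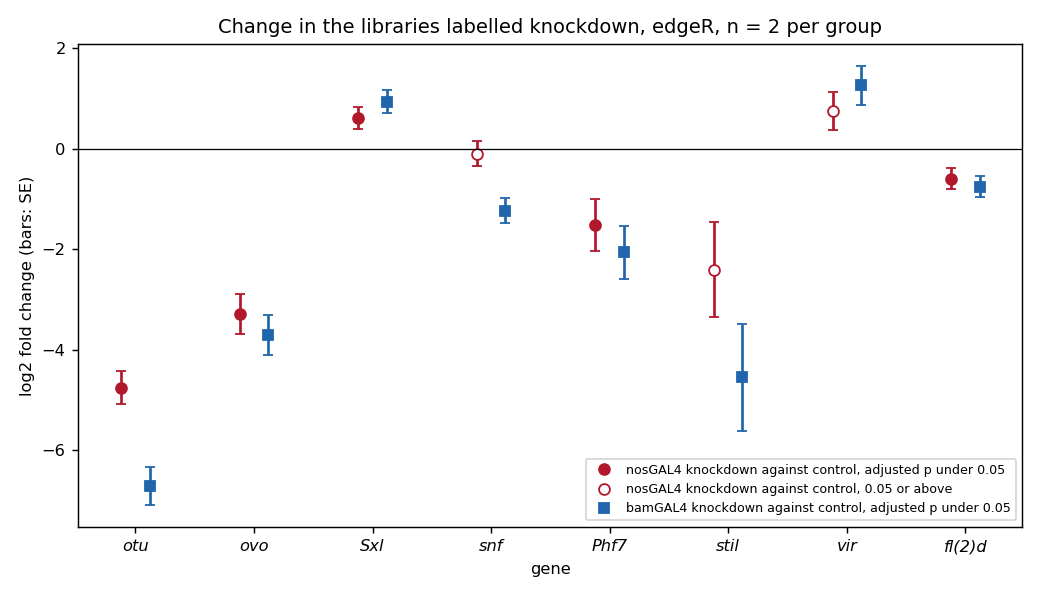
Log2 fold change with its SE for the 8 genes, libraries labelled knockdown over controls (edgeR, 2 libraries per group); red circles are nosGAL4, blue squares bamGAL4, and open symbols mark an adjusted p of 0.05 or above. The changes range from −4.76 for otu to 0.75 for vir with nosGAL4 and from −6.72 to 1.26 for the same genes with bamGAL4.

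Whether the drivers differed was tested as the bamGAL4 effect minus the nosGAL4 effect. Only otu passed, with a difference of −1.96 (SE 0.44, edgeR adjusted p = 0.0452), so that its fall was 3.90-fold deeper with bamGAL4. Of all genes 2.68% passed this test, and 1.52% in the direction of otu. The difference kept its sign under every alternative run but lost the threshold under many. It was −0.47 (adjusted p = 0.486) when scaled by ribosomal protein genes, a scaling under which 97.3% of the genes that passed this test were higher, against 43.3% as reported. It was −1.76 (adjusted p = 0.0548) with library totals and −1.80 (0.0565) with RLE size factors. It was also lost on leaving out any single control library or bamGAL4 library labelled knockdown, with values from −1.54 to −2.51 and adjusted p from 0.0597 to 0.18. Next to it, snf differed by −1.13 (SE 0.34, edgeR adjusted p = 0.0892), and the other 6 genes had adjusted p from 0.367 to 0.783. The standard errors of these 6 were 0.30 to 1.38 on the log2 scale, so the test does not show that the drivers act alike on them.

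Setting the libraries labelled knockdown of the drivers against each other, otu again was the one of the 8 that passed, at 1.86 and 3.68 CPM with bamGAL4 against 19.1 and 12.9 CPM with nosGAL4 (log2 difference −2.53, SE 0.34, edgeR adjusted p = 0.00499). Of all genes 4.14% passed, and 2.02% lower with bamGAL4. This call was lost without bamGAL4 library 1 labelled knockdown (−2.11, adjusted p = 0.0832) and in a fit of those 4 libraries alone (adjusted p = 0.0616), and without nosGAL4 library 2 labelled knockdown both ovo (−1.57) and stil (−2.87) passed besides otu. Between the controls, Sxl was lower with bamGAL4 (192 and 149 CPM) than with nosGAL4 (294 and 322 CPM), with a log2 difference of −0.85 (SE 0.22, edgeR adjusted p = 0.0477). It was 1 of the 8 genes to pass, where 6.8% of all genes did, and 3.11% were lower. That call was lost with either length correction (−0.20, adjusted p = 0.726, and −0.68, adjusted p = 0.167) and on leaving out any single control library or bamGAL4 library labelled knockdown (adjusted p from 0.0513 to 0.219). These comparisons share libraries with those above. The drivers' groups also differ in balancers and come from separate count tables, and driver, genetic background and any batch cannot be told apart.

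Levels per kilobase of merged exons allow the genes to be ordered within a group. In the nosGAL4 libraries labelled knockdown snf (62.0 ± 7.96 CPM per kb, SD, n = 2), Sxl (51.2 ± 6.09) and fl(2)d (19.2 ± 1.94) stood apart from each other and above the rest, and the ranges of Phf7, ovo, otu, vir and stil, at means from 5.96 to 2.31 CPM per kb, overlapped from each to the next. In the bamGAL4 ones snf (41.5 ± 5.53) and Sxl (35.6 ± 3.00) overlapped at the top, and otu (0.810 ± 0.375) and stil (0.614 ± 0.333) overlapped at the bottom.

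The order was different in the controls. In nosGAL4 controls otu was highest (126 ± 1.04 CPM per kb), followed by snf (66.3 ± 3.99), ovo (51.7 ± 8.09), Sxl (33.5 ± 2.15), fl(2)d (29.1 ± 2.11), Phf7 (17.1 ± 3.90), stil (12.2 ± 0.98) and vir (2.58 ± 0.21). No neighbours in that order had overlapping ranges. In the bamGAL4 controls snf (97.7 ± 20.3 CPM per kb) and otu (85.1 ± 6.33) led with overlapping ranges, and so did the ranges of fl(2)d and ovo and of Phf7 and Sxl overlap. The place of Sxl depends on the length used. Per kilobase of the median transcript it was the highest of the 8 in both groups of libraries labelled knockdown, at 162.8 and 113 CPM per kb, against 106.5 CPM per kb in nosGAL4 controls and 59.0 CPM per kb in bamGAL4 controls.

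Because germline markers fell too, each gene was also set against their summed level, as its CPM per 1000 CPM of the 17 markers. Of those markers 14 fell and 1 rose with nosGAL4, and 15 fell and 1 rose with bamGAL4, where 25.7% and 33.1% of all genes fell. The one that rose in both was tud, a germ plasm gene, at 439 and 609 CPM in nosGAL4 libraries labelled knockdown, against 61.0 and 34.5 CPM in controls. With bamGAL4 it was at 589 and 768 CPM, against 54.6 and 40.5 CPM. It made up 65.4% and 64.2% of the summed markers in the bamGAL4 libraries labelled knockdown and 24.0% and 42.2% in the nosGAL4 ones, against 0.407% to 0.732% in controls. The ratios are therefore also given against the 16 other markers, an alternative added after this was seen.

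Relative to the germline markers otu was still lower. Its ratio was 10.4 and 8.92 in the nosGAL4 libraries labelled knockdown, against 51.5 and 51.3 in controls, and 2.07 and 3.07 in the bamGAL4 ones, against 33.8 and 35.4 in controls. With tud left out it was 13.8 and 15.4, against 51.9 and 51.5 with nosGAL4, and 5.97 and 8.58, against 34.0 and 35.6 with bamGAL4. The ratio of otu was thus below every control of the same driver in each version, and so it was against vas, the germline RNA helicase gene, alone (log2 change −2.41 with nosGAL4 and −1.96 with bamGAL4).

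For ovo the ratio gave no single direction. Against all 17 markers it was 29.2 and 17.3 in the nosGAL4 libraries labelled knockdown, against 40.9 and 50.2 in controls, and 15.5 and 18.3 in the bamGAL4 ones, against 29.6 and 25.6. With tud left out it was 38.4 and 29.9, against 41.2 and 50.4 with nosGAL4, but 44.9 and 51.0, against 29.7 and 25.7 with bamGAL4. So in the bamGAL4 comparison ovo fell less than the 16 other markers did in sum. Of that sum, 9023 and 7748 CPM in bamGAL4 controls, the marker dhd alone made up 3156 and 2595 CPM. In the bamGAL4 libraries labelled knockdown dhd was at 2.84 and 6.06 CPM, within sums of 312 and 429 CPM. The log2 fold change of ovo with bamGAL4, −3.71, lay near the median of the 17 markers, −3.68. Ratios with dhd left out were not calculated, for ovo or for stil. Against all 17 markers the ratio of stil with bamGAL4 was 0.492 and 0.831, against 1.98 and 2.04 in controls. With tud left out it was 1.42 and 2.32, against 1.99 and 2.05, where the groups overlapped. With nosGAL4 the groups overlapped in both versions. The ratio of stil was 2.89 and 0.092, against 1.62 and 1.79, and with tud left out 3.80 and 0.159, against 1.64 and 1.80.

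Sxl, snf, vir and fl(2)d were higher relative to the germline markers with both drivers. The marker sum itself fell, so a gene whose CPM did not change is higher by this ratio. One such case was snf with nosGAL4, whose log2 fold change was −0.10 and whose groups overlapped in CPM. The share of all genes that were higher by this ratio was not counted, so the result does not set these genes apart. For Sxl the ratio was 236 and 354 in the nosGAL4 libraries labelled knockdown, against 35.3 and 38.03 in controls, and 341 and 289.5 in the bamGAL4 ones, against 21.1 and 19.2. For snf it was 31.0 and 32.7, against 6.37 and 6.82 with nosGAL4, and 42.1 and 26.2, against 10.3 and 8.93 with bamGAL4. The ratios of vir and fl(2)d were likewise above every control of the same driver, with log2 changes of 3.13 and 1.77 with nosGAL4 and 4.46 and 2.26 with bamGAL4. For Phf7 the ratio was 11.9 and 5.61, against 4.31 and 5.87, where groups overlapped, with nosGAL4 and 8.17 and 13.5, against 4.08 and 7.79, with bamGAL4. With tud left out it was 15.7 and 9.71, against 4.34 and 5.89 with nosGAL4, and 23.6 and 37.8, against 4.11 and 7.83 with bamGAL4, so the groups no longer overlapped with nosGAL4. Sxl, snf, vir and fl(2)d also act in somatic cells, and somatic markers rose. The part of that rise in these ratios was not tested.

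**Figure D4:**
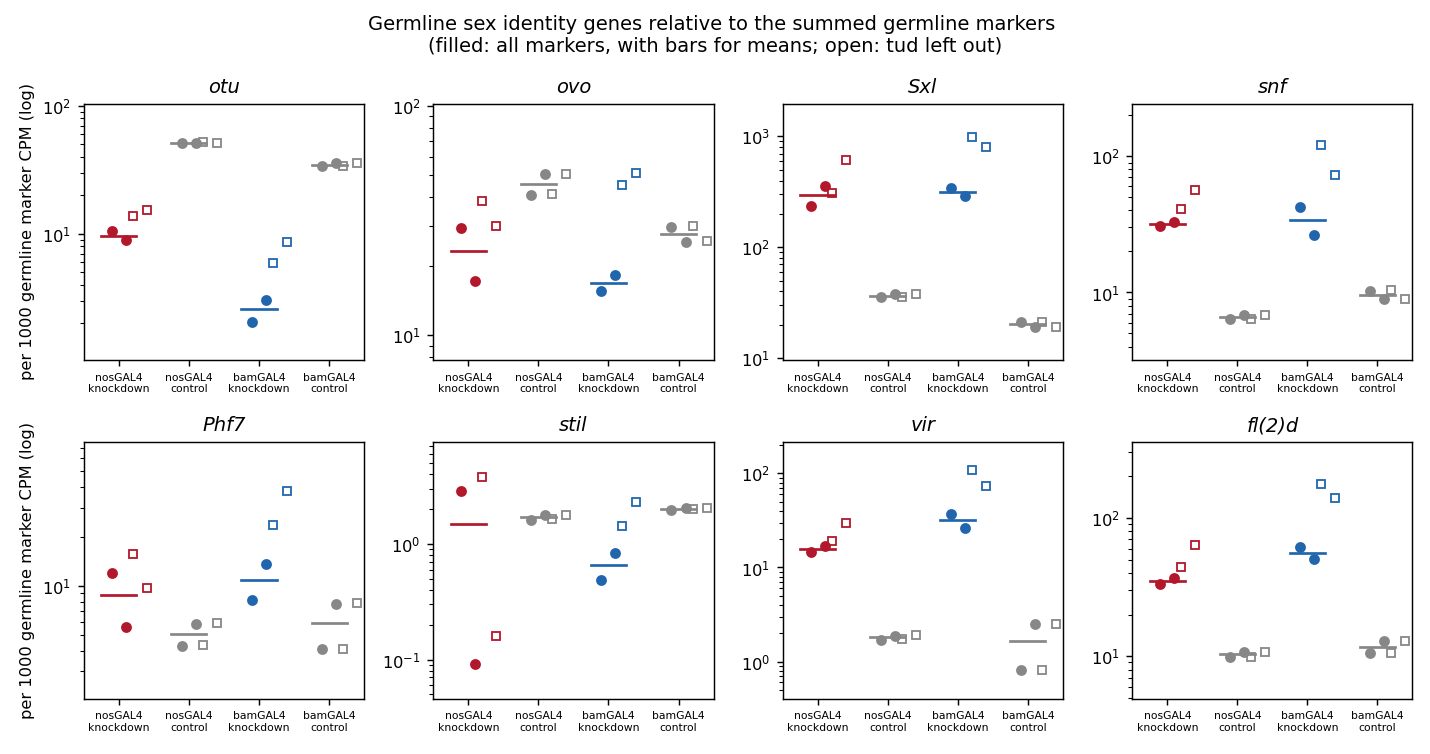
CPM of each gene per 1000 CPM of germline markers (log axis) by library, with filled points and mean bars for all 17 markers and open squares for the 16 markers other than tud; libraries labelled knockdown stand left of their controls. For otu both versions lie below the controls, for ovo with bamGAL4 filled points lie below and open squares above them, and for Sxl, snf, vir and fl(2)d both lie above.

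Genes around the 8 in the same pathways were counted from lists chosen by function. Of 11 genes for partners of Sxl in splicing and for m6A writers and readers, 0 rose and 5 fell with nosGAL4, and 0 rose and 7 fell with bamGAL4, with median log2 fold changes of −0.78 and −1.03. Of all genes 25.7% fell with nosGAL4 and 33.1% with bamGAL4, and the medians over all genes were 0.11 and −0.06. With ribosomal protein gene scaling the medians of the list were −1.30 and −0.16. The U1 snRNP gene snRNP-U1-70K fell by 1.30 with nosGAL4 and by 1.19 with bamGAL4 on the log2 scale. The splice site recognition gene U2af38 fell by 1.13 and by 2.28. Among the m6A writers, Mettl3 was at 13.4 and 9.95 CPM in the nosGAL4 libraries labelled knockdown, against 22.4 and 22.7 CPM in controls, and Hakai at 9.13 and 6.46 CPM in the bamGAL4 ones, against 28.4 and 31.6 CPM. With library totals or ribosomal protein gene scaling 9 of 11 fell with nosGAL4, whereas with ribosomal protein gene scaling 2 fell and 1 rose with bamGAL4, and with RLE size factors 7 fell and 1 rose. Of all genes 36.2% fell with nosGAL4 under library totals and 36.5% under ribosomal protein gene scaling. With bamGAL4 13.2% fell and 46.2% rose under ribosomal protein gene scaling, and 28.6% and 38.4% with RLE size factors. The nosGAL4 count of 5 was 2 without either nosGAL4 control library and 3 without bamGAL4 library 1 labelled knockdown.

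Of 15 genes of somatic sex determination and of the X-chromosome count, 12 were tested. With nosGAL4 6 rose and 3 fell, where 33.5% of all genes rose and 25.7% fell, and with bamGAL4 4 rose and 1 fell, where 35% rose and 33.1% fell. Among the 6 was run, at 1.22 and 3.05 CPM, against 0 CPM in both nosGAL4 controls. It passed the count filter only through the nosGAL4 libraries labelled knockdown, so its rise was partly set by the filter. Without nosGAL4 control library 2 the nosGAL4 counts were 5 higher and 0 lower. Library totals gave 5 higher and 4 lower with nosGAL4 and 4 higher and 3 lower with bamGAL4, and ribosomal protein gene scaling gave 4 and 4, and 6 and 0. Of all genes, library totals gave 27.3% higher and 36.2% lower with nosGAL4, and 31.7% and 37.8% with bamGAL4. Ribosomal protein gene scaling gave 24.5% and 36.5% of all genes, and 46.2% and 13.2%. Apart from run, at a log2 fold change of 7.40 with nosGAL4, the largest named change was that of dsx, the somatic switch for sexual form. The level of dsx was 116 and 144 CPM in nosGAL4 libraries labelled knockdown, against 2.69 and 3.12 CPM in controls. In bamGAL4 ones it was 127 and 135 CPM, against 1.05 and 0.792 CPM. The neural sex gene fru rose by 3.02 with nosGAL4 and 3.92 with bamGAL4 on the log2 scale, and emc, a helix-loop-helix regulator of Sxl, by 1.66 and 2.14. Summed niche, escort and follicle cell markers moved with these genes, at 2168 and 2658 CPM in nosGAL4 libraries labelled knockdown, against 227 and 219.9 CPM in controls, and at 2039 and 2206 CPM in bamGAL4 ones, against 188 and 153 CPM. Of 14 such markers tested 12 rose with either driver, and 0 fell with nosGAL4 and 1 with bamGAL4. A marker could pass the count filter through libraries labelled knockdown alone, so the count of rises was partly set by the filter. Wnt4 was such a marker, at 0.384 and 0.520 CPM in nosGAL4 controls and 0.131 and 0.396 CPM in bamGAL4 controls. The part of these markers in the rise of dsx, fru and Sxl was not tested. In the controls en was at 0 counts in 4 of 4 libraries. Summed neuronal markers were 186 and 265 CPM, against 7.58 and 6.58 CPM with nosGAL4, and 275 and 336 CPM, against 3.41 and 2.45 CPM with bamGAL4.

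**Figure D5:**
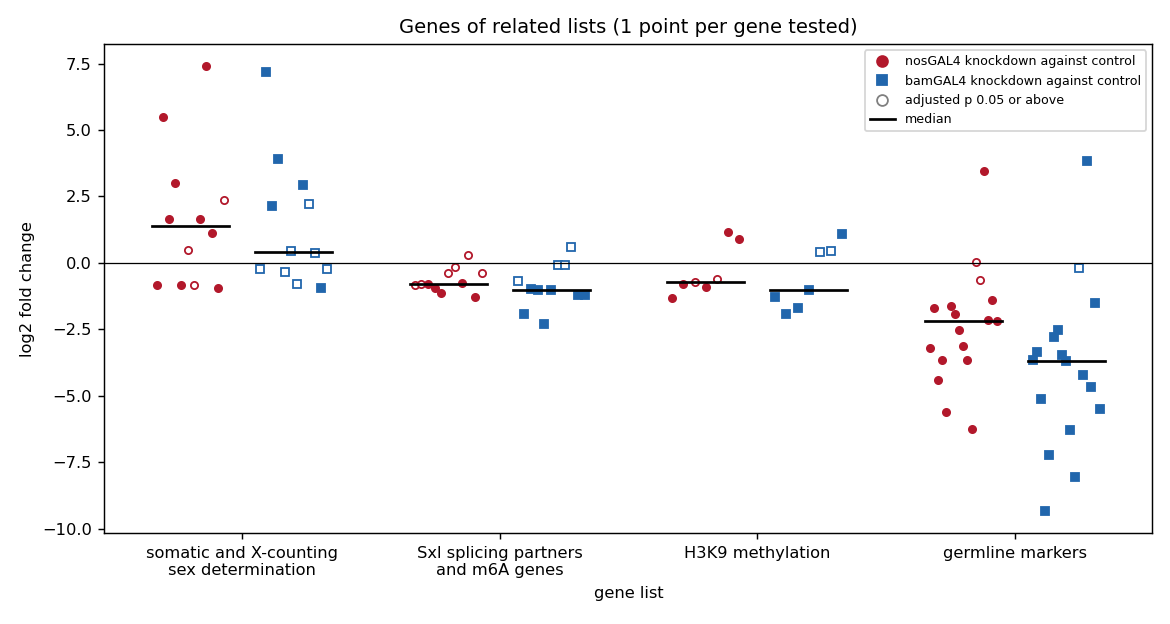
Log2 fold change (libraries labelled knockdown over controls) of each tested gene in 4 lists, with red circles for nosGAL4, blue squares for bamGAL4, open symbols for an adjusted p of 0.05 or above and black bars for medians. The m6A and splicing genes have medians of −0.78 and −1.03 and the germline markers of −2.18 and −3.68, with tud the single germline marker far above 0.

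Of 7 tested genes of the stem cell and cyst programme in which Sxl acts, 4 fell with each driver and 1 rose with nosGAL4, where 25.7% and 33.1% of all genes fell and 33.5% rose with nosGAL4. With bamGAL4, RLE size factors and ribosomal protein gene scaling gave 1 higher, and ribosomal protein gene scaling 3 lower. Of all genes 38.4% were higher with RLE size factors, and 46.2% were higher and 13.2% lower with ribosomal protein gene scaling. The translational repressor gene nos, a target of Sxl protein, was at 4.59 and 1.46 CPM in nosGAL4 libraries labelled knockdown, against 408 and 452 CPM in controls. In bamGAL4 libraries labelled knockdown it was at 1.51 and 2.68 CPM, against 499 and 448 CPM. The differentiation factor gene bam was at 0 and 0.928 CPM in nosGAL4 libraries labelled knockdown, against 39.9 and 43.6 CPM, and at 0.0886 and 0.696 CPM in bamGAL4 ones, against 46.8 and 41.9 CPM. Its partner gene bgcn was the one that rose with nosGAL4, at 8.51 and 4.11 CPM, against 0 and 0.0866 CPM. Those controls were under the floor of 3 counts, so bgcn could not pass the count filter through them. The gene tut, for another partner of the bam product, was at 2.84 and 4.27 CPM in the bamGAL4 libraries labelled knockdown, against 53.1 and 35.3 CPM in controls. With nosGAL4 its groups overlapped, the libraries labelled knockdown having 4.59 and 1.99 CPM of tut, against 2.49 and 2.16 CPM in controls. The libraries labelled knockdown thus overlapped between the drivers in tut. Its controls did not, being far higher with bamGAL4, the driver with which it fell.

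Histone H3 lysine 9 methylation silences the male transcript of Phf7 in female germ cells. From a list of genes for such methylation and related chromatin proteins 7 were tested, stwl among them. Whether each of them acts on Phf7 was not tested. With nosGAL4 2 rose, stwl and wde, and 3 fell, and with bamGAL4 1 rose and 4 fell. The 5 of 7 that passed with each driver stand beside 59.2% and 68.1% of all genes. The methyltransferase genes G9a and egg fell by 1.33 and 0.92 with nosGAL4 on the log2 scale, while wde, which encodes the partner of the egg product, rose by 0.89. With bamGAL4 the gene for heterochromatin protein HP1a fell by 1.92, the methyltransferase gene Su(var)3-9 by 1.68 and G9a by 1.27. With ribosomal protein gene scaling the bamGAL4 counts were 3 higher and 1 lower, and with nosGAL4 it left 0 higher and 5 lower, as did library totals. Under ribosomal protein gene scaling 46.2% of all genes were higher and 13.2% lower with bamGAL4, and 24.5% and 36.5% with nosGAL4. Library totals gave 27.3% and 36.2% of all genes with nosGAL4. The nosGAL4 count of 5 was 1 without nosGAL4 control library 2.

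Testis-enriched genes, listed as a possible readout of a male programme, mostly had few counts or none. Of 20, 7 had no count in any library (sa, comr, nht, dj, ProtA, ProtB and Mst98Cb), 12 had at most 3 counts in every library, and 5 could be tested. With nosGAL4 3 rose and 1 fell, and with bamGAL4 2 rose and 1 fell, or 4 and 1 with ribosomal protein gene scaling, where 59.2% of all genes passed with nosGAL4 and 68.1% with bamGAL4 as reported. With ribosomal protein gene scaling 46.2% of all genes rose and 13.2% fell with bamGAL4. The meiotic phosphatase gene twe was at 6.35 and 2.79 CPM in nosGAL4 libraries labelled knockdown, against 76.8 and 77.4 CPM in controls. In bamGAL4 ones it was at 3.01 and 4.07 CPM, against 82.7 and 81.5 CPM. It was thus expressed in every control ovary library, so counts over this list alone do not show whether a male programme was on. The meiotic translation factor gene bol was at 31.8 and 36.6 CPM, against 7.39 and 6.15 CPM with nosGAL4, and at 17.5 and 30.4 CPM, against 3.14 and 2.14 CPM with bamGAL4. Taf12L was at 18.4 and 9.15 CPM in nosGAL4 libraries labelled knockdown, against 1.06 and 0.779 CPM in controls. For esg, which marks several stem cell types, the levels were 1.89 and 1.59 CPM with nosGAL4, against 0 in both controls, and 1.24 and 0.994 CPM with bamGAL4, against 0.131 and 0.0792 CPM. A gene could pass the count filter through 1 group of libraries alone. Low in every control, esg entered the test only through libraries labelled knockdown, so its rise was partly set by the filter. The 7 transcripts with no count were not detectable at this depth, where 3 counts are 0.238 to 0.405 CPM.

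Genes with the most similar pattern were sought among 7598 genes, by Euclidean distance of centred log2 CPM over the 8 libraries, so that a smaller distance is a closer match. Nearest to otu were clos (0.69), wisp (1.04) and gnu (1.16), whose log2 fold changes with nosGAL4 were −4.87, −4.55 and −4.53. Its distance to ovo was 3.31. Nearest to ovo were orb (0.58), CycE (0.68) and smg (0.72). Nearest to stil were CG16956 (1.03), squ (1.09) and DNApol-alpha60 (1.09), and nearest to Phf7 CG32708 (0.79), trem (0.79) and AsnS (0.84).

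The genes with smaller changes had closer matches. Nearest to Sxl were PAN3 (0.29), CG3198 (0.32) and Pp1alpha-96A (0.37), to snf CG13364 (0.30), CG14480 (0.32) and CG3337 (0.33), to vir Sec31 (0.46), htk (0.49) and Lztr1 (0.50), and to fl(2)d csul (0.23), lace (0.28) and EMC8-9 (0.29). Between the 8 genes themselves the closest pair by distance was snf and fl(2)d at 0.82, followed by Sxl and vir at 1.66 and ovo and stil at 1.82. Ranks by distance from each gene gave another order. From stil, ovo had rank 55, and from ovo, stil had rank 112. From snf, fl(2)d had rank 353, with 833 the other way, and from Sxl, vir had rank 1330, with 1187 the other way. The farthest pair was otu and vir at 9.95.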

How the data were processed

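Estimated counts per gene, 1 column per library and unscaled, were deposited by the authors in 1 table per driver. FastQC 0.11.8, Trim Galore 0.6.6, STAR 2.7.5b, Salmon 1.2.1 and build dm6 are named per the submitters' processing notes, and libraries were made from Trizol-extracted RNA with a directional kit (per the protocols in the labels), with annotation and strand setting not given in the sources used here. Of 14094 gene identifiers 14048 were found in BDGP6.54 (Ensembl 115, dm6 coordinates), which gave positions and lengths. The 8 genes and all gene lists were chosen with earlier results of these data known.

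Counts were rounded. Genes were kept by filterByExpr (minimum count 10, minimum total 15), which left 8957, and edgeR 4.0.16 (limma 3.58.1, R 4.3.3) fitted 1 robust quasi-likelihood model of 4 groups to all 8 libraries with TMM factors and 4 residual degrees of freedom. Adjusted p-values are Benjamini-Hochberg over all genes of a contrast, with a threshold of 0.05. Fold changes use a prior count of 0.125, and SEs come from the F statistic. CPM are scaled by TMM. A floor of 3 counts is 0.238 to 0.405 CPM and covers counting error only. Genes were named by a rule: all 8, stwl, up to 3 genes per list and driver with the smallest adjusted p among those that passed, and the 3 nearest patterns per gene among genes with a mean of at least 5 CPM (pseudocount 0.5). The gene vas, and the values of a listed gene for a driver where the rule did not take it, were chosen after their values were seen. No label says that the 2 libraries of a group came from separate flies, so p-values measure the spread between these libraries. Alternatives were RLE size factors, library totals, scaling to 85 ribosomal protein genes, DESeq2 1.42.0, no filter, a filter of 5 CPM, fits of only the 4 libraries compared, a replicate block, removal of trends on exon or transcript length, each library left out, and other germline markers. The listed gene cup and a planned search of promoter motifs were not analysed here.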

Additional observations from a re-analysis of the deposited data

Results flagged for a closer look

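One result stood out because the effects of the drivers differed by a test of the difference itself. The fall of otu was deeper with bamGAL4 than with nosGAL4, with a difference of −1.96 on the log2 scale (SE 0.44, edgeR adjusted p = 0.0452), and otu was lower in 4 of 4 libraries labelled knockdown than in the controls of their driver. The adjusted p ran from 0.00137 with DESeq2 to 0.486 with ribosomal protein gene scaling over the alternatives. Relative to other germline genes the order of the drivers was not stable. The log2 change of otu was −3.78 with bamGAL4 and −2.41 with nosGAL4 relative to all 17 germline markers, −2.28 and −1.83 with tud left out, but −1.96 and −2.41 relative to vas alone. The bamGAL4 libraries labelled knockdown held 5.97 and 8.58 CPM of otu per 1000 CPM of germline markers other than tud, against 13.8 and 15.4 in the nosGAL4 ones, beside 34.0 and 35.6 in bamGAL4 controls and 51.9 and 51.5 in nosGAL4 controls.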

How the results depend on the processing

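The 2 libraries of a group limit every test, and depth limits stil, the one of the 8 genes with 10 or fewer counts in a library. Over single genes, 655 values kept their direction and side of the threshold, 60 lost the threshold, 21 gained it and 46 changed sign, of which 40 passed neither as reported nor under the alternative. The causes were not tested. Counts of the 8 genes that passed, as reported and under an alternative, moved as follows. With nosGAL4 the 5 became 3 without a filter. With bamGAL4 the 8 became 5 with ribosomal protein gene scaling. For the difference between drivers the 1 became 0 with RLE size factors or library totals and 3 with ribosomal protein gene scaling. Between libraries labelled knockdown the 1 became 0 in the 4 libraries alone, where stil was filtered out. Between controls the 1 became 3 with ribosomal protein gene scaling and 0 with RLE size factors or either length correction. Leaving out 1 library gave ranges of 2 to 6, 4 to 8, 0 to 3, 0 to 3 and 0 to 1 for these 5 contrasts. The 6 sign changes of values that passed were, with the exon length trend removed, Sxl with nosGAL4 (−0.88) and bamGAL4 (−1.37) and vir with bamGAL4 (−0.053), with the transcript length trend removed vir with bamGAL4 (−0.33), and with ribosomal protein gene scaling fl(2)d with bamGAL4 (0.12) and in the difference between drivers (1.27). Relative to vas alone, ovo (1.11) and stil (0.17) reversed with bamGAL4, and with tud left out ovo did (0.79). The others follow as log2 values. With ribosomal protein gene scaling they were, in the difference between drivers, ovo (1.12), snf (0.29), Phf7 (1.00) and stwl (0.81), between libraries labelled knockdown Phf7 (0.27), and between controls snf (−0.40), Phf7 (−0.73), stil (−0.71) and fl(2)d (−0.78). With library totals it was fl(2)d (0.037) in the difference between drivers. With the exon length trend removed they were stwl with bamGAL4 (−0.37), Sxl (−0.49) and vir (−0.096) in the difference between drivers, fl(2)d (−0.017) between libraries labelled knockdown, and snf (−0.073), stil (−0.25), vir (0.29) and stwl (0.31) between controls. With the transcript length trend removed they were vir with nosGAL4 (−0.10), stwl with bamGAL4 (−0.32), vir (−0.23) in the difference between drivers, and snf (−0.041), stil (−0.20), vir (0.35) and stwl (0.31) between controls. Leaving out 1 library gave ranges across 0 of −0.24 to 0.011 for snf with nosGAL4, in the difference between drivers of −0.85 to 0.23 for ovo, −1.20 to 0.34 for Phf7, −3.10 to 2.08 for stil and −0.0036 to 1.39 for vir, between libraries labelled knockdown of −1.02 to 0.53 for Phf7, −2.87 to 2.31 for stil and −0.085 to 0.12 for fl(2)d, and between controls of −0.20 to 0.50 for Phf7, −1.04 to 0.35 for vir and −0.23 to 0.22 for stwl. Same-numbered libraries did not deviate together (r = −0.029 with nosGAL4 and 0.007 with bamGAL4 over 8957 genes), so the numbers do not pair them. With a replicate block 3 genes passed with nosGAL4, where Sxl (adjusted p = 0.0737) and fl(2)d (adjusted p = 0.0659) did not, 8 with bamGAL4 and 0 in the difference between drivers, with 2 residual degrees of freedom.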
